A study of Mus musculus with 12 samples.

Results

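The receptors for interleukin-5 (IL-5), interleukin-3 (IL-3) and the colony-stimulating factors were followed through the 7 genes that encode their chains, Il5ra, Il3ra, Csf2ra, Csf2rb, Csf2rb2, Csf1r and Csf3r. They were picked by name and are 7 of 54532 genes in the authors' table of raw counts. All 7 passed the filter on low counts that left 14547 genes for testing. RNA sequencing was done on splenic eosinophils (SSChigh4get+, that is, of high side scatter and positive for the 4get green fluorescence) sorted from IL-5tg_4get/C57BL/6 mice. Every group therefore carries an IL-5 transgene, which drives eosinophilia, and the 4get reporter, which marks cells that express interleukin-4. The promoter of the transgene and the age of the animals were not given in the sources used here.

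The cells were cultured for 4 h in 4 groups of 3 libraries. The combined group received 5 µg/mL of the anti-Siglec-F antibody (clone E50-2440) together with 10 ng/mL of recombinant IL-33. Another group received IL-33 at that dose, another the antibody at that dose, and the last a rat IgG2a isotype control antibody. Siglec-F is an inhibitory sialic acid-binding receptor of mouse eosinophils, and IL-33 is an alarmin that signals through the receptor ST2. The labels do not say whether the IL-33 group also received the isotype antibody. Nor do they say if the replicate libraries stem from different animals or different cultures. The p-values below thus reflect the spread among these libraries only, and part or all of it may be technical.

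The receptors for IL-5, IL-3 and granulocyte-macrophage colony-stimulating factor (GM-CSF) each join a ligand-binding alpha chain to a beta chain that carries the kinase JAK2 and activates STAT5. These cytokines support the growth, survival and activation of eosinophils, and the mouse has both a common beta chain (Csf2rb), shared by all of these alpha chains, and a further beta chain (Csf2rb2) that serves IL-3 alone. Csf1r encodes the receptor tyrosine kinase for CSF-1 and IL-34, best known from macrophages, and Csf3r encodes the receptor for granulocyte colony-stimulating factor (G-CSF), best known from neutrophils.

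The beta chain genes are near-identical copies, so short stretches of both are shown first, to let the reads behind their separate counts be judged. Over 2628 aligned coding bases (2688 in Csf2rb and 2634 in Csf2rb2, GENCODE vM21 on GRCm38) they were 95.2% identical, and the longest run without a difference was 242 bases. The 90-base stretch with the most differences held 16, marked by capitals, and lies at chr15:78338897-78338986 on the plus strand for Csf2rb (exon 5) and at chr15:78294345-78294434 on the minus strand for Csf2rb2 (exon 4).
Csf2rb: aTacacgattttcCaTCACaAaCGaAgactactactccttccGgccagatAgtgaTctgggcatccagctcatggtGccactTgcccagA
Csf2rb2: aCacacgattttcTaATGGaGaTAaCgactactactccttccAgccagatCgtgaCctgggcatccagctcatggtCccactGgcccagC
A stretch of the same length without any difference, which cannot assign a read to either gene, lies at chr15:78341658-78341747 on the plus strand in Csf2rb and at chr15:78291563-78291652 on the minus strand in Csf2rb2.
Csf2rb and Csf2rb2: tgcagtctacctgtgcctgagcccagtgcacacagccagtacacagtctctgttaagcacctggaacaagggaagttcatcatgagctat
Windows were taken from the Csf2rb transcript with the longest coding sequence. Of these, 18.4% of those of 50 bases and 3.47% of those of 150 bases also occurred in Csf2rb2 transcripts. How the authors' counting treated such reads was not given in the sources used here, and the separate levels of these genes are uncertain to that extent.

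Il5ra and Il3ra are the alpha chain genes that spread most between libraries, and their start regions, 250 bases before to 50 bases after the start site (RefSeq, GRCm38.p6), differ in base composition. The Il5ra window at chr6:106748988-106749287 on the minus strand had 44.3% G and C and 4 CpG sites. Its capitals mark a GATA motif (AGATAA) at position -74 and a PU.1 core (GAGGAA) at position 41 from the start site, each searched on both strands.
Il5ra start region: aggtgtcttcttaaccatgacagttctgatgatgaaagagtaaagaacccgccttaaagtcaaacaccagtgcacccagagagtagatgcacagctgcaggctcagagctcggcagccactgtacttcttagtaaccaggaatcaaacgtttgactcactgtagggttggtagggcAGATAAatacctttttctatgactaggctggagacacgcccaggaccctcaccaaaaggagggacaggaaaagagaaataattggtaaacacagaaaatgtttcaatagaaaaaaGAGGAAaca
The Il3ra window at chr14:14346245-14346544 on the plus strand had 74.3% G and C and 35 CpG sites.
Il3ra start region: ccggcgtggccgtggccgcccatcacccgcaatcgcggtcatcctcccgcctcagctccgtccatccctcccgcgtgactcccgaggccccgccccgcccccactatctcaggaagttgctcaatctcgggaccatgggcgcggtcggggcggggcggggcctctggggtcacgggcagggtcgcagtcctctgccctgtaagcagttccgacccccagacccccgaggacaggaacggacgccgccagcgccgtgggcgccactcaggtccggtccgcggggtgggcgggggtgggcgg
The medians over 32851 such windows were 52.7% and 7 CpG sites. The letters AGATAA occurred in 11.2% of them, GAGGAA in 28.3% and a STAT motif (TTCNNNGAA) in 8.3%. None of these letter strings occurred in the Il3ra window, and the STAT motif did not occur in that of Il5ra. A match is a description of the letters and not a binding site. Entries were found for 5 of the 7 genes; Csf2rb and Csf1r had none.

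Total counts ran from 11686603 to 17137988 per library. In the combined group, libraries 2 and 3 stood apart, since they held 15555 and 29990 genes with at least 1 count and all others 19138 to 24485. The share of counts on ribosomal protein genes was 3.08% and 3.57% in these libraries and 1.52% to 2.43% in the others. Levels are given in CPM, the counts scaled to a common library size. The eosinophil markers Epx (118 to 665 CPM), Prg2 (622 to 5372 CPM), Siglecf (535 to 1068 CPM) and Ccr3 (1286 to 1910 CPM) were present in all 12 libraries. None of 8 eosinophil markers was called in any comparison. Markers of other cells were present in all libraries too, such as the neutrophil genes Retnlg (195 to 911 CPM) and Ngp (130 to 986 CPM). The 7 B and plasma cell markers summed to between 263 CPM, in a combined library, and 632 CPM, in an IL-33 library. The part of such cells in the receptor values was not tested.

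The sorted cells carried the beta chain and GM-CSF receptor transcripts at far higher levels than those of the IL-5 and IL-3 alpha chains. Levels between genes are given as CPM per kilobase of the gene length in the authors' table. In the isotype group Csf2rb stood highest with 499 ± 48.8 CPM per kilobase (SD, n = 3), followed by Csf2ra with 369.9 ± 31.8 and Csf2rb2 with 346 ± 29.8. Csf1r came next with 88.6 ± 6.31 CPM per kilobase, then Il5ra with 37.96 ± 5.79, Il3ra with 6.11 ± 1.62 and Csf3r with 2.16 ± 0.982. Csf2ra and Csf2rb2 were the only neighbours in that order whose isotype libraries overlapped. Among the 14547 genes tested, Csf2rb lay at the 99.6th percentile of the isotype means, Csf1r at 96.4, Il5ra at 91.0, Il3ra at 59.9 and Csf3r at 39.1.

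With both stimuli the order by group mean was the same, at 557 ± 67.04 CPM per kilobase for Csf2rb, 406 ± 179 for Csf2ra, 363 ± 39.9 for Csf2rb2 and 209 ± 13.6 for Csf1r. Csf2rb and Csf2ra then overlapped, because Csf2ra ran from 281 to 612 CPM per kilobase in these libraries. In the IL-33 and the anti-Siglec-F groups the mean of Csf2rb2 (384 ± 49.4 and 421 ± 0.925 CPM per kilobase) lay above that of Csf2ra (317 ± 67.5 and 342 ± 62.1). Csf2ra made up 84.8% to 95% of the summed alpha chain level per length in every library, and Csf2rb exceeded Csf2rb2 per length by 1.36 to 1.70 times. For Csf2ra and Csf1r the authors' gene lengths (1849 and 4885 bases) are shorter than the joined exons in GENCODE vM21 (2871 and 5774 bases). Their levels per length thus depend on the annotation used. The length of Csf2rb (7277 bases) joins the exons of 8 transcripts. Its transcript with the longest coding sequence is shorter, with 4851 windows of 50 bases. For Csf2rb2 the length was 4740 bases, and that transcript had 4691 such windows. The ratio of Csf2rb to Csf2rb2 per length therefore also depends on the length used.

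**Figure D1:**
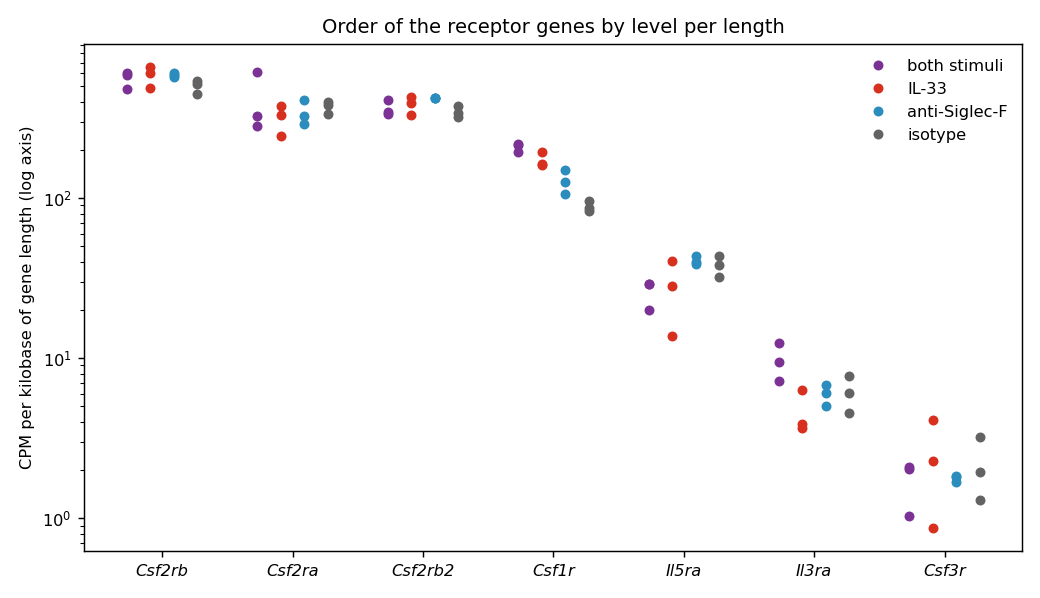
CPM per kilobase of gene length (log axis) of the 7 receptor genes in each library, with the groups coloured and set side by side for each gene. Csf2rb, Csf2ra and Csf2rb2 lie above Csf1r in all 12 libraries. Csf3r, with 0.871 to 4.10 CPM per kilobase, is lowest in every library except IL-33 library 2, where Il3ra is lower (3.87).

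Csf1r was the only receptor gene with a called change in edgeR with the filter on low counts and all 12 libraries. It rose with IL-33, alone or with the antibody, relative to the isotype control. Csf1r (ENSMUSG00000024621, mm10 chromosome 18, 61105572 to 61132149, plus strand) had 1066, 944 and 1052 CPM in the 3 libraries with both stimuli. It had 945, 790.3 and 795 CPM with IL-33, 618, 519 and 732 CPM with anti-Siglec-F and 425, 407 and 467 CPM in the isotype libraries. The 9 stimulated libraries all lay above the highest isotype library. The IL-33 libraries lay above all antibody libraries, and the lowest combined library lay just under the highest IL-33 library.

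For IL-33 against isotype the means were 844 ± 87.7 and 433 ± 30.8 CPM (SD, n = 3 each), a log2 fold change of 0.96 (SE 0.162). The adjusted p was 0.00603 in edgeR's quasi-likelihood test, in a fit that did not pair the libraries. Csf1r was 1 of 7 receptor genes called, against 2.21% of all genes tested, and 1 of 7 whose groups did not overlap, against 24.1%. Both stimuli against isotype gave a log2 fold change of 1.24 (SE 0.163) with an edgeR adjusted p of 0.000551, again 1 of 7 called, against 9.88% of all genes. Leaving out any single library of the groups compared ended neither call. In bulk RNA, a change in the number of cells of a type and a change in the RNA per cell cannot be told apart.

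Both stimuli against anti-Siglec-F gave 1021 ± 66.5 and 623 ± 106 CPM (SD, n = 3 each), a log2 fold change of 0.71 (SE 0.161) with an edgeR adjusted p of 0.027. That was 1 of 7 called, against 4.42% of all genes. Unlike the calls against isotype, this one was lost without library 3 of the combined group (adjusted p = 0.0795), without antibody library 1 (0.107) and without antibody library 2 (0.135). With only library 1 of the combined group kept, the log2 fold change was 0.82 and the adjusted p 0.109. Over all alternatives tried for this comparison the adjusted p of Csf1r ran from 0.000153 to 0.135.

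The antibody alone gave no called receptor gene, as it gave none among all genes (0% of 14547 in edgeR, 370 at an unadjusted p under 0.05, 11 called by DESeq2 and 10 by limma voom). Csf1r was the 1 receptor gene at an unadjusted p under 0.05. Its log2 fold change was 0.53 (SE 0.161) with a 95% interval of 0.18 to 0.87 and an adjusted p of 1. Each antibody library exceeded each isotype library in Csf1r, and 3 of 7 receptor genes had groups that did not overlap, against 13.2% of all genes.

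Both stimuli differed from IL-33 alone by 0.27 (SE 0.16) in Csf1r (95% interval -0.07 to 0.62, adjusted p = 0.381). The interaction, that is, the effect of the antibody in the presence of IL-33 minus its effect in the absence of IL-33, was -0.25 (95% interval -0.74 to 0.24, adjusted p = 0.707). Both intervals include 0. Comparisons with a group in common share its libraries and are not independent.

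**Figure D2:**
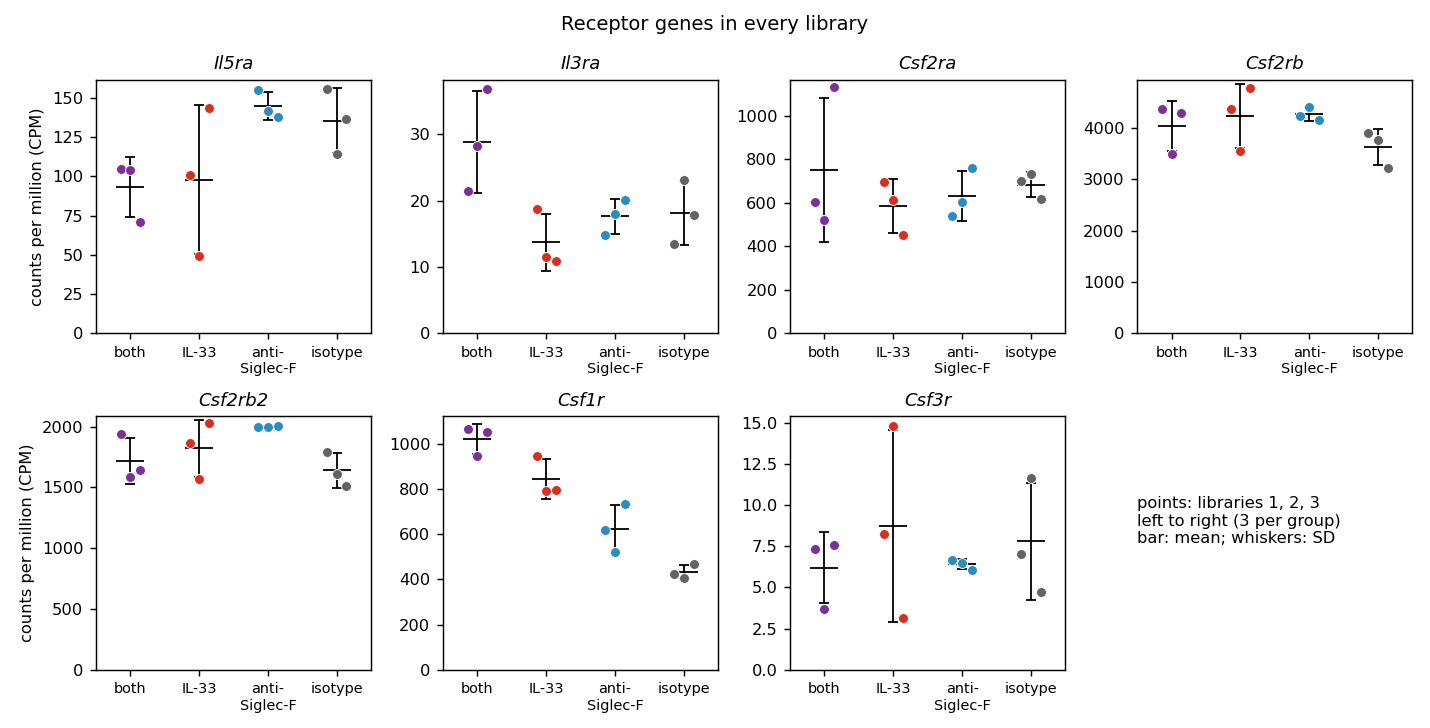
CPM of each receptor gene by group, with 1 point per library, the mean as a bar and the SD as whiskers (n = 3). Csf1r steps down from both stimuli (1021 ± 66.5 CPM) through IL-33 and anti-Siglec-F to isotype (433 ± 30.8 CPM), while the other genes show groups that mostly overlap.

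The exons of Csf1r share 873 bases with Hmgxb3 on the other strand, and the strand setting of the authors' counting was not given in the sources used here. Hmgxb3 had 36.9 ± 9.44 CPM with both stimuli, 45.6 ± 2.85 with IL-33, 37.5 ± 2.03 with the antibody and 27.5 ± 3.87 in the isotype group (SD, n = 3 each). Its IL-33 libraries all lay above its isotype libraries, with a log2 fold change of 0.73 (SE 0.185) (95% interval 0.33 to 1.12, edgeR adjusted p = 0.0617). Hmgxb3 was at most 48.3 CPM in any library and Csf1r at least 407 CPM. Reads from the shared bases cannot be told apart, and their part in the Csf1r counts was not tested.

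By the smallest root mean square difference of centred log2 CPM over the 12 libraries, the genes most like Csf1r among 8683 candidates were M6pr (0.149), Adgre1 (0.152) and Fgr (0.178), where the median candidate had 0.56. M6pr encodes a sorting receptor for lysosomal enzymes, Adgre1 the surface protein F4/80 of macrophages and mouse eosinophils, and Fgr a Src family kinase of myeloid cells. Adgre1 had 2345, 2199.5 and 2671 CPM with both stimuli, 2283, 1590.3 and 2019.9 CPM with IL-33, 1549, 1416 and 1470.4 CPM with the antibody and 1228, 1031 and 1149 CPM in the isotype libraries. All 9 stimulated libraries exceeded the isotype libraries in Adgre1, and its log2 fold changes in edgeR were 0.79 (SE 0.168) for IL-33 and 1.08 (SE 0.169) for both stimuli against isotype (adjusted p = 0.0262 and 0.00163). M6pr changed by 1.00 (SE 0.143) and Fgr by 0.88 (SE 0.143) for both stimuli against isotype, with edgeR adjusted p-values of 0.00102 and 0.0021. These genes were chosen for their likeness, so their pattern is a description.

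Csf1r also marks monocytes and macrophages, so their markers are given beside it. The 16 listed markers summed to 232 to 747 CPM with both stimuli, 159 to 464 with IL-33, 190.0 to 347 with the antibody and 153 to 288 in the isotype libraries. The highest levels of the list were reached by Slc40a1 (43.0 to 341 CPM), Ly6c2 (35.3 to 243 CPM) and Vcam1 (9.14 to 132 CPM). Of the 16, 10 stayed under 10 CPM in every library. Among them were Mertk (at most 0.429 CPM), Ms4a7 (at most 0.954 CPM) and the complement genes C1qa, C1qb and C1qc (at most 3.34 CPM). Marco, also among them, was at 0 in 7 libraries. With IL-33 against isotype Spic and Cd14 rose in edgeR (3.65 and 2.80 on the log2 scale, adjusted p = 0.0101 and 0.0275). With both stimuli against isotype Spic (3.92), Cd14 (3.52) and Slc40a1 (1.79) rose, while Ccr2 (-1.13) and F13a1 (-2.13) fell on that scale. Marker sums in combined libraries 1 and 3 (608 and 747 CPM) and in IL-33 libraries 1 and 2 (464 and 332 CPM) lay above all isotype libraries, as Csf1r did. The sums in combined library 2 (232 CPM) and IL-33 library 3 (159 CPM) lay within the isotype range, although Spic and Cd14 exceeded all isotype libraries there too. The part of monocytes and macrophages in the Csf1r values was not tested.

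The beta chain genes were abundant and varied least of the 7 between libraries. Csf2rb (ENSMUSG00000071713, chromosome 15, 78325752 to 78353847) had 4369.6, 3488 and 4292 CPM with both stimuli, 4378, 3558 and 4788 CPM with IL-33, 4247, 4422 and 4172 CPM with the antibody and 3908, 3763 and 3233 CPM in the isotype libraries. The 3 antibody libraries all lay above the isotype libraries, and the other stimulated groups overlapped the isotype group. The highest of all 12 libraries was 1.48 times the lowest.

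Csf2rb2 (ENSMUSG00000071714, chromosome 15, 78282507 to 78305721) had 1936, 1585 and 1640.2 CPM with both stimuli, 1869, 1567 and 2028 CPM with IL-33, 1994, 1995 and 2002 CPM with the antibody and 1791, 1613 and 1513 CPM in the isotype libraries. Its antibody libraries lay above both the isotype and the combined libraries, and its whole range was 1.34 times. For the antibody against isotype the log2 fold changes were 0.24 for Csf2rb (95% interval -0.13 to 0.60) and 0.29 for Csf2rb2 (-0.05 to 0.62), each with an adjusted p of 1. For IL-33 they were 0.22 (-0.14 to 0.59) and 0.15 (-0.18 to 0.49), and for both stimuli against isotype 0.16 (-0.21 to 0.52) and 0.07 (-0.27 to 0.41). These intervals exclude changes of 1 on the log2 scale, that is, a doubling. The interaction was -0.30 (-0.82 to 0.21) for Csf2rb and -0.37 (-0.84 to 0.11) for Csf2rb2. With the counts of both genes summed, which does not depend on how reads were split between them, the log2 fold changes against isotype were 0.25 with the antibody, 0.20 with IL-33 and 0.13 with both stimuli, again with no call.

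Il5ra, the IL-5-binding chain that gives these cells their response to the transgenic cytokine, had no difference that passed the test. Il5ra (ENSMUSG00000005364, chromosome 6, 106710357 to 106749037) had 105, 104 and 71.2 CPM with both stimuli, 101, 49.1 and 144 CPM with IL-33, 155, 142 and 138 CPM with the antibody and 156, 115 and 136 CPM in the isotype libraries. The combined libraries lay below all antibody and isotype libraries. The IL-33 libraries spread widely, from the lowest value of the 12 to one within the isotype range.

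Against isotype the log2 fold change of Il5ra was -0.54 (SE 0.289) with both stimuli (95% interval -1.16 to 0.08, edgeR adjusted p = 0.252), and -0.32 with only library 1 of the combined group kept. It was -0.47 (SE 0.289) with IL-33 (-1.09 to 0.15, adjusted p = 0.565), but -0.13 without IL-33 library 2 and -0.81 without IL-33 library 3, and 0.10 with the antibody (-0.52 to 0.71). Both stimuli against anti-Siglec-F gave -0.64 (SE 0.29) (-1.26 to -0.01, adjusted p = 0.206), which among the alternatives was called only when no filter on low counts was used (-0.66, adjusted p = 0.0277, in a range of 0.0277 to 0.808). The IL-33 library with the least Il5ra, library 2, also had the highest sum of 11 T cell and ILC2 markers, at 131 CPM against 30.4 to 65.2 CPM elsewhere. It had the highest sums of B and plasma cell markers (632 CPM) and of dendritic cell markers (744 CPM) as well. Its sum of eosinophil markers (4655 CPM) was the lowest. The part of other cell types in its Il5ra value was not tested.

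Il3ra, the IL-3-binding chain, was the receptor gene in which both stimuli together departed most from IL-33 alone. Il3ra (ENSMUSG00000068758, chromosome 14, 14346275 to 14356011) had 21.4, 28.2 and 36.9 CPM with both stimuli, 18.7, 11.5 and 10.8 CPM with IL-33, 14.8, 17.99 and 20.02 CPM with the antibody and 13.4, 23.04 and 17.9 CPM in the isotype libraries. Every combined library lay above every IL-33 and antibody library, while the lowest combined library lay within the isotype range. Both stimuli against IL-33 differed by 1.07 (SE 0.271) on the log2 scale (95% interval 0.49 to 1.66), with an edgeR adjusted p of 0.191.

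In that comparison edgeR called no receptor gene and 0% of all genes, although 2526 genes had an unadjusted p under 0.05, and Il3ra was the 1 receptor gene among them and the 1 of 7 whose groups did not overlap, against 14.1% of all genes. DESeq2 called 470 genes there, Il3ra among them (adjusted p = 0.0245), and limma voom called none. In edgeR Il3ra was called without a filter on low counts (adjusted p = 0.00239) and without library 1 of the combined group (adjusted p = 0.0146). That library had the lowest Il3ra of its group. Libraries 2 and 3, the pair that stood apart from the rest, had the highest Il3ra of all 12 libraries, and without them the log2 fold change was 0.68. The adjusted p ran from 0.00239 to 0.999 over all alternatives.

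Against isotype the log2 fold change of Il3ra was 0.67 (SE 0.268) with both stimuli (adjusted p = 0.13, and 0.049 without library 1 of the combined group), -0.40 with IL-33 (-0.99 to 0.18) and -0.04 with the antibody (-0.62 to 0.54). Relative to anti-Siglec-F it was 0.71 (SE 0.268) with both stimuli (adjusted p = 0.138, and 0.0419 without that library). Over all alternatives these adjusted p-values ran from 0.049 to 0.746 against isotype and from 0.0419 to 0.828 against anti-Siglec-F. With only library 1 of the combined group kept, these values were 0.29 against isotype (adjusted p = 0.746) and 0.33 against anti-Siglec-F (adjusted p = 0.828). None of these passed the threshold with all libraries. The interaction was 1.11 (SE 0.381) (95% interval 0.30 to 1.93, adjusted p = 0.583), in a test that called 0% of all genes in edgeR, 3 genes in DESeq2 and none in limma voom, with 1150 genes at an unadjusted p under 0.05. Il3ra was the 1 receptor gene among those 1150.

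Csf2ra, the GM-CSF-binding chain, had no difference that passed the test. Csf2ra (ENSMUSG00000059326, chromosome 19, 61224402 to 61228418) had 604, 519 and 1131 CPM with both stimuli, 696, 613 and 451 CPM with IL-33, 537, 601 and 759.8 CPM with the antibody and 702, 732 and 618 CPM in the isotype libraries. Each stimulated group overlapped the isotype group, and library 3 of the combined group stood highest. The log2 fold change for both stimuli against isotype was 0.14 (95% interval -0.43 to 0.70) and turned to -0.29 without that library. For IL-33 it was -0.22 (-0.79 to 0.35), for the antibody -0.11 (-0.68 to 0.45) and for the interaction 0.47 (-0.33 to 1.27), which was 0.04 without library 3 of the combined group.

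Over the 7 receptor genes, 2 of 7 had groups without overlap for both stimuli against isotype (Il5ra lower and Csf1r higher), against 27.2% of all genes. Against anti-Siglec-F, 4 of 7 had such groups with both stimuli (Il5ra and Csf2rb2 lower, Il3ra and Csf1r higher), against 22% of all genes. The median log2 fold change of the 7 was 0.15 for IL-33 and 0.14 for both stimuli against isotype, against -0.01 and -0.05 over all genes tested.

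**Figure D3:**
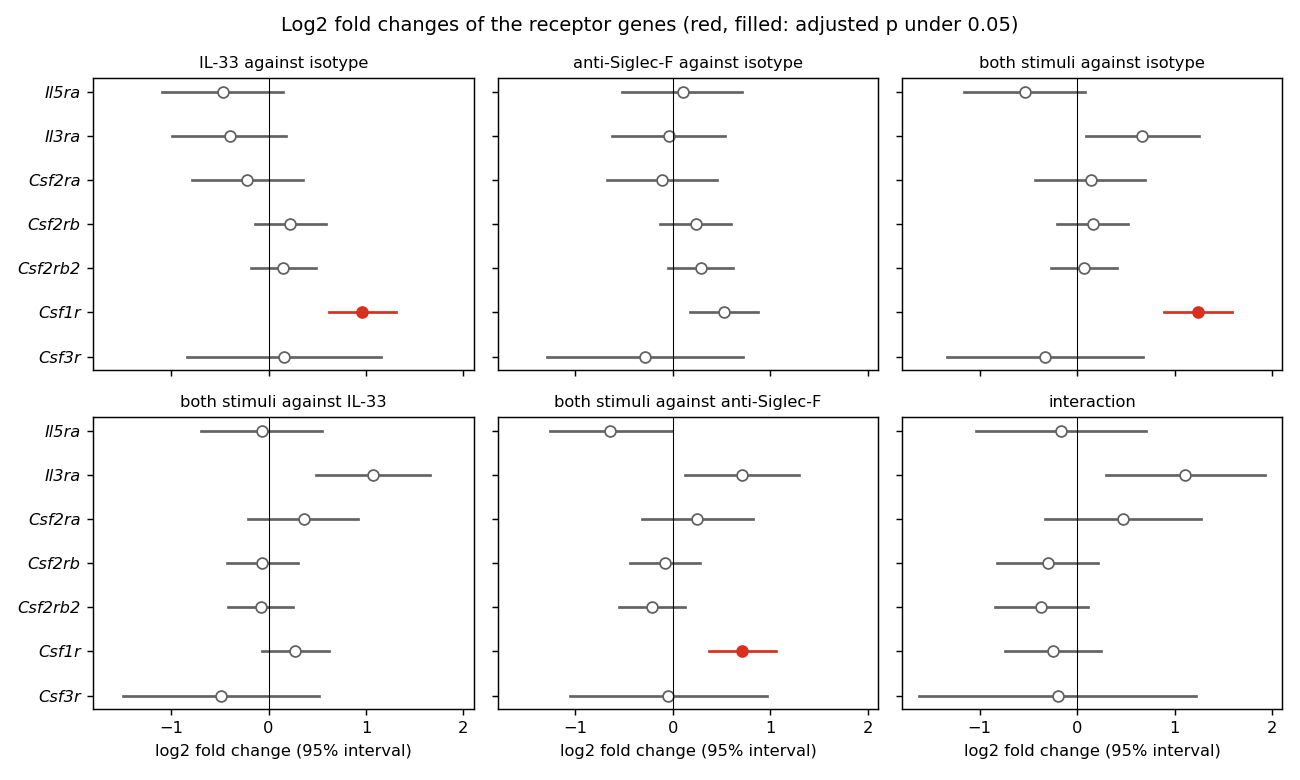
Log2 fold changes of the 7 receptor genes in the 6 comparisons, with 95% intervals, where the interaction is the effect of the antibody in the presence of IL-33 minus its effect in the absence of IL-33. Filled red points mark an edgeR adjusted p under 0.05, which Csf1r alone reached, in 3 comparisons.

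Csf3r had the lowest mean of the receptor genes in every group, though it exceeded Il3ra in IL-33 library 2. Csf3r (ENSMUSG00000028859, chromosome 4, 126024550 to 126044440) had 7.31, 3.70 and 7.56 CPM with both stimuli, 8.23, 14.8 and 3.14 CPM with IL-33, 6.65, 6.50 and 6.07 CPM with the antibody and 7.05, 11.7 and 4.70 CPM in the isotype libraries. All groups overlapped, and the counts ran from 44 to 188 per library. The intervals of its log2 fold changes were wide, -0.84 to 1.15 for IL-33, -1.29 to 0.72 for the antibody and -1.34 to 0.68 for both stimuli against isotype. Each included 0 and reached past 1 in one direction. Neutrophil markers, 12 genes such as Retnlg and Ngp, summed to 865 to 1896 CPM with both stimuli, 478 to 1553 with IL-33, 1089.8 to 2229.9 with the antibody and 979.8 to 2177 in the isotype libraries, and none was called. The part of neutrophils in the Csf3r counts was not tested.

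Of the 6 ligand genes, Il5 and Csf1 were well expressed. Il5 had 1023, 681 and 1033 CPM with both stimuli, 895, 454 and 382 CPM with IL-33, 553, 389 and 541 CPM with the antibody and 279.6, 277 and 274 CPM in the isotype libraries. The stimulated libraries all lay above the isotype libraries, whose values hardly spread. Il5 rose by 1.72 (SE 0.285) on the log2 scale for both stimuli against isotype (edgeR adjusted p = 0.00233), a call that leaving out any single library did not end. For IL-33 the value was 1.06 (SE 0.28) (adjusted p = 0.0736) and for the antibody 0.84 (SE 0.279) (adjusted p = 1). These mice carry an IL-5 transgene, and reads from it cannot be told apart from those of the endogenous gene.

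Csf1, the ligand of CSF1R, had 1001, 718 and 859 CPM with both stimuli, 1143, 553 and 675 CPM with IL-33, 703, 606 and 687 CPM with the antibody and 524, 422 and 530.1 CPM in the isotype libraries. All 9 stimulated libraries exceeded the isotype libraries in Csf1. It rose by 0.80 (SE 0.237) for both stimuli against isotype (edgeR adjusted p = 0.0467), but the call was lost in 5 of 6 fits that left out 1 library (all but the one without library 2 of the combined group, with adjusted p-values up to 0.138), in limma voom, and with only library 1 of the combined group kept. For IL-33 the log2 fold change was 0.68 (SE 0.236) (adjusted p = 0.18). Per length, Csf1 stood at 0.648 to 1.14 times Csf1r over the 12 libraries.

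Transcripts of the other ligands were at or near 0. Il3 had 0 counts in all 12 libraries. Csf2, which encodes GM-CSF, had 5 counts in library 3 of the combined group, 4 in IL-33 library 2 and 0 elsewhere. Il34 had 0 to 4 counts and Csf3, which encodes G-CSF, 0 to 15 counts per library, so none of these 4 genes was tested.

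**Figure D4:**
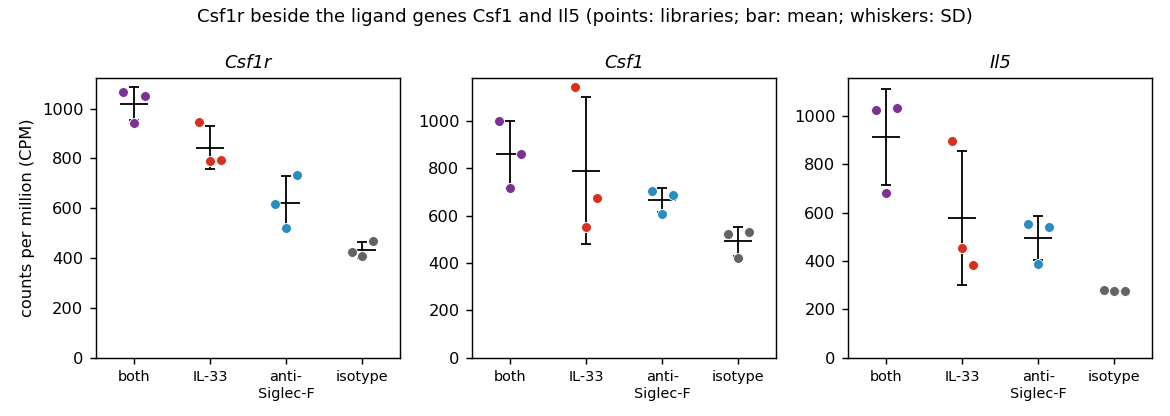
CPM of Csf1r beside the ligand genes Csf1 and Il5 by group, with 1 point per library, the mean as a bar and the SD as whiskers (n = 3). In each gene all stimulated libraries lie above the isotype libraries, which average 433 ± 30.8 CPM for Csf1r, 492 ± 60.9 for Csf1 and 277 ± 2.77 for Il5.

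Among the genes listed as downstream of these receptors, those of the PIM2 and PIM3 kinases and of BCL-XL rose with IL-33. No STAT factor gene was called in any comparison. Whether the receptors had a part in these changes was not tested, and STAT activity was not measured. Of 80 tested genes in 9 lists around the receptors, 5 rose with IL-33 (6.25%) and 17 with both stimuli against isotype (21.2%), and 12 rose with both stimuli against anti-Siglec-F (15.0%). None fell, and none was called in the other 3 comparisons (the antibody alone, the combined group against IL-33, and the interaction). Over all genes tested the share called higher was 1.46%, 5.47% and 2.7% in the 3 comparisons with calls. The lists were chosen with earlier results of these data known, so the shares of their genes are a description.

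Among 11 STAT5 and survival targets, 3 rose with IL-33 and 4 with both stimuli against isotype. Pim2, a survival kinase, had 1062, 978 and 1331 CPM with both stimuli, 1045, 878 and 571 CPM with IL-33, 348, 268 and 319 CPM with the antibody and 285, 243 and 215 CPM in the isotype libraries. The libraries with IL-33, with or without the antibody, all lay above the antibody and isotype libraries. Pim2 rose by 1.75 (SE 0.223) with IL-33 and 2.18 (SE 0.226) with both stimuli against isotype (edgeR adjusted p = 0.000766 and 0.000114).

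Bcl2l1, which encodes the survival protein BCL-XL, had 316, 364 and 349.8 CPM with both stimuli, 278, 294 and 217 CPM with IL-33, 145, 138 and 157 CPM with the antibody and 96.02, 123 and 99.8 CPM in the isotype libraries. It was high in the same libraries as Pim2, and it rose by 1.31 (SE 0.158) with IL-33 and 1.69 (SE 0.16) with both stimuli against isotype (edgeR adjusted p = 0.000577 and 6.18e-05). Leaving out single libraries ended none of these 4 calls. Pim3, a related kinase, rose by 1.78 (SE 0.253) with both stimuli (adjusted p = 0.000965), and by 1.15 (SE 0.249) with IL-33 (adjusted p = 0.0285), where the call remained in only 1 of 6 fits without 1 library (without IL-33 library 3), with adjusted p-values up to 0.166 in the others.

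The receptor kinase JAK2 and the STAT5 genes showed no called change. Jak2 averaged 339 ± 92.2 CPM with both stimuli and 467 ± 61.2 CPM in the isotype group (SD, n = 3 each), a log2 fold change of -0.46 (95% interval -0.86 to -0.06, adjusted p = 0.13). Stat5a differed by 0.01 (-0.29 to 0.31) and Stat5b by -0.36 (-0.70 to -0.02) in that comparison. Of 9 receptor kinases only Lyn, a Src family kinase that associates with the beta chain, rose with both stimuli against isotype (0.63, SE 0.133, edgeR adjusted p = 0.01), and that call was lost without isotype library 1 (adjusted p = 0.0538).

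Of 9 brakes on cytokine receptors, Ptpn6, which encodes the phosphatase SHP-1, and Socs3, a suppressor of cytokine signalling, rose with both stimuli against isotype (log2 fold changes of 0.77 and 0.75, edgeR adjusted p = 0.0125 and 0.0182). Leaving out 1 library ended the Ptpn6 call in 1 of 6 fits (isotype library 1, adjusted p = 0.0617) and the Socs3 call in 3 of 6 (library 3 of the combined group and isotype libraries 1 and 3, adjusted p up to 0.0981). Both calls were also lost with only library 1 of the combined group kept (0.77 and 0.84, adjusted p = 0.0803 and 0.0581). Cish, a classic STAT5 target among the brakes, averaged 582 ± 97.99 CPM with both stimuli and 392 ± 12.03 CPM in the isotype group, a log2 fold change of 0.57 with an edgeR adjusted p of 0.0521. Adam17, the protease that sheds CSF1R and other receptors from the surface, rose by 0.87 (SE 0.179) in that comparison (adjusted p = 0.00885), a call that held in all 6 fits that left out 1 library.

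Of 11 transcription factors of myeloid receptor genes, Cebpb and Id2 rose with both stimuli against isotype, by 1.33 (SE 0.288) and 0.88 (SE 0.212) (edgeR adjusted p = 0.0122 and 0.0197). Leaving out isotype library 1 or 3 ended the Cebpb call (highest adjusted p = 0.0663), and the Id2 call was lost without library 2 or 3 of the combined group or isotype library 1 or 3 (up to 0.0822). With only library 1 of the combined group kept, neither gene was called, at 1.21 for Cebpb (adjusted p = 0.0748) and 0.30 for Id2 (adjusted p = 0.525), so the Id2 value rested on libraries 2 and 3. Spi1, which encodes PU.1, a factor known to drive Csf1r in macrophages, averaged 1179.7 ± 269 CPM with both stimuli, 847 ± 161 with IL-33 and 875 ± 162 in the isotype group and was not called.

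Of the 13 other cytokine receptor genes tested, 2 rose with IL-33 and 4 with both stimuli against isotype. Il2rg, the common gamma chain used by the receptors for interleukin-2 and interleukin-4, had 141, 176 and 158 CPM with both stimuli, 136, 143 and 103 CPM with IL-33, 65.9, 60.6 and 83.1 CPM with the antibody and 51.2, 72.6 and 62.9 CPM in the isotype libraries. As with Csf1r, the libraries with IL-33 all lay above the isotype libraries in Il2rg. Its log2 fold change was 1.03 (SE 0.184) with IL-33 (edgeR adjusted p = 0.00859, lost without IL-33 library 1 or isotype library 1, where it reached up to 0.0617) and 1.35 (SE 0.185) with both stimuli (adjusted p = 0.00074). With both stimuli against isotype Il10rb and Ifngr2, chains of the interleukin-10 and interferon gamma receptors, rose by 1.18 (SE 0.221) and 0.89 (SE 0.172) (edgeR adjusted p = 0.00489 and 0.00612). With only library 1 of the combined group kept, Ifngr2 stood at 0.64 and lost its call (adjusted p = 0.0719).

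**Figure D5:**
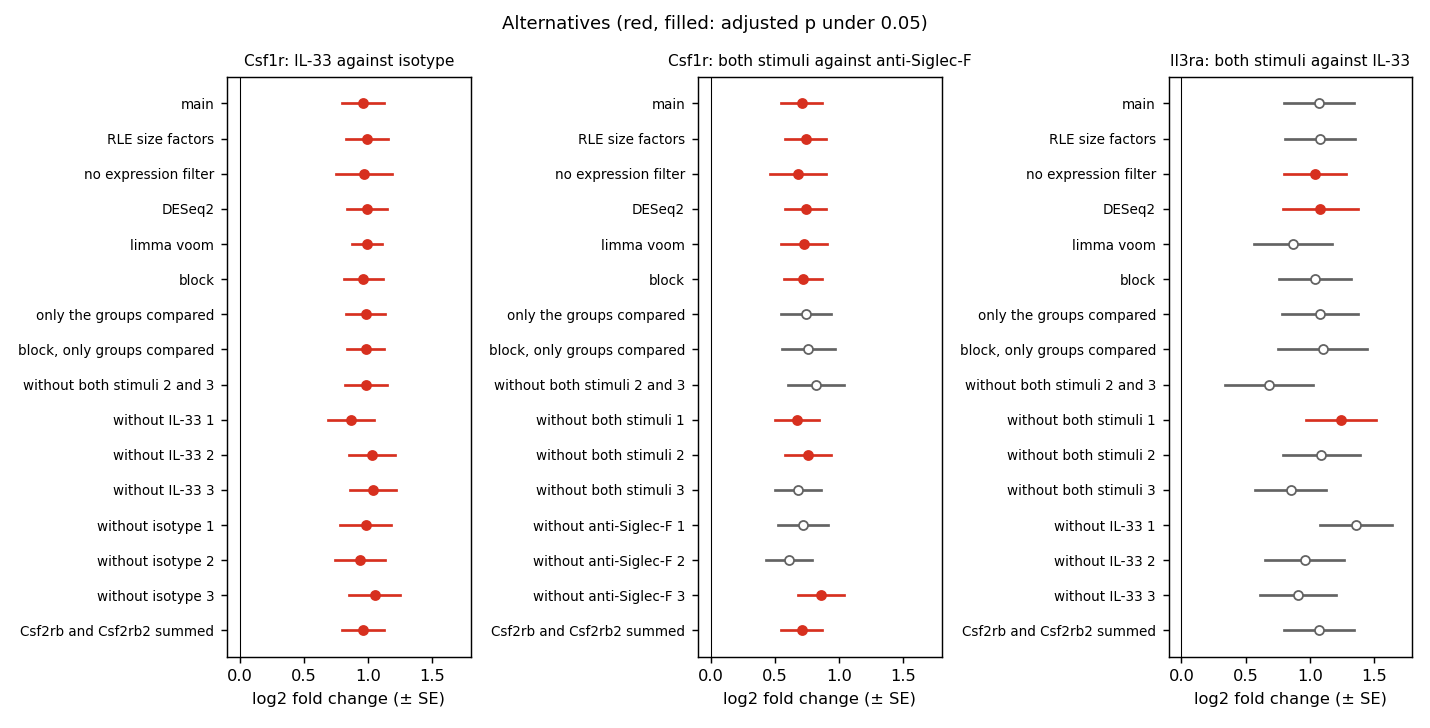
Log2 fold changes with their SE under each processing alternative for Csf1r in 2 comparisons and Il3ra in 1, where filled red points mark an adjusted p under 0.05. Csf1r for IL-33 against isotype stays between 0.87 and 1.05 and is called throughout, whereas Csf1r for both stimuli against anti-Siglec-F and Il3ra for both stimuli against IL-33 pass the threshold under some alternatives only.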

How the data were processed

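Libraries were made with a NEBNext Ultra RNA kit from total RNA, per the labels' protocols. Reads were processed with fastp, FastQC 0.11.8, STAR 2.6.1d and featureCounts 1.5.0-p3 against mm10, and DESeq2 is named as well, per the submitters' processing notes. The annotation release and the strand setting were not given in the sources used here. The authors deposited whole-number counts per gene for 12 libraries, with a gene length column (another unit, in bases). Their normalized table was not used here.

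From the deposited counts, edgeR 4.0.16 in R 4.3.3 fitted all 12 libraries by group, with TMM scaling and the filterByExpr filter (14547 of 54532 genes kept). Its quasi-likelihood F test was adjusted by Benjamini-Hochberg within each of 6 comparisons, with calls at an adjusted p under 0.05. CPM used the TMM factors. The SE came from the log2 fold change and its F statistic, and 95% intervals from the t distribution with 13.7 degrees of freedom. The scripts were tested on simulated data. Alternatives were RLE size factors, no filter, DESeq2 1.42.0, limma 3.58.1 voom with quality weights, only the groups compared, a replicate block, summed beta chain counts, and leaving out libraries.

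All 7 receptor genes were named whatever their values. Of each gene list around the receptors up to 3 called members with the largest change could be named per comparison, others only with their values, and of genes patterned like a called receptor gene the nearest 3 (mean of at least 5 CPM). The genes and lists were chosen with earlier results of these data known. Equal replicate numbers were checked as pairs by the correlation of deviations from group means. For IL-33 against isotype these were 0.24, 0.24 and 0.17, all over 0.1, and were taken as pairing those libraries. The other comparisons did not meet that limit. The values printed for IL-33 against isotype still come from the fit by group, without this pairing. Csf1r kept its call in that comparison when a replicate block was used. Gene coordinates are those of the authors' table, and overlaps and beta chain sequences come from GENCODE vM21 (GRCm38, the same assembly as mm10), which gave the same coordinates for 5 of the 7 genes (not Csf2ra and Csf1r).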

Additional observations from a re-analysis of the deposited data

How the results depend on the processing

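Of 658 values of the receptor genes under the alternatives, 646 stayed on their side of the threshold, 6 lost a call and 6 gained one. They belong to 42 results by gene and comparison, of which only some of Csf1r were called, so most values stayed uncalled. The summed beta chain counts entered under both genes. All 6 losses were of Csf1r for both stimuli against anti-Siglec-F, in 3 of 6 fits without 1 library and 3 of 9 other alternatives. No called value changed sign, and 35 values without a call did. For both stimuli against IL-33 the receptor genes called numbered 1 without a filter and 1 with DESeq2, and 0 to 1 when single libraries were left out. For both stimuli against anti-Siglec-F they numbered 2 without a filter, 0 when only the groups compared were fitted, 0 with a replicate block in that fit, 0 with only library 1 of the combined group kept, and 0 to 2 when single libraries were left out. Leaving out single libraries gave 1 to 2 for both stimuli against isotype. The cause was not tested.

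With the replicate block in all 12 libraries no receptor gene gained or lost a call, and the genes called over the whole table were 364 for IL-33, 0 for the antibody, 1459 for both stimuli against isotype, 0 against IL-33, 642 against anti-Siglec-F and 0 for the interaction. The paired block in the fit of only the groups compared gave 1235, 50, 916, 0 and 350 genes for the 5 group comparisons. For the comparisons other than IL-33 against isotype at least 1 pair correlated at 0.1 or less. A low correlation over so few libraries cannot show that they are unpaired, and the labels do not say. Whether equal numbers pair the libraries there is thus not known.

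Counts over all genes depended on the processing. For IL-33 against isotype 322 genes were called, 116 to 488 when single libraries were left out and 315 to 2089 under the other alternatives. The same figures were 1437, 515 to 2916 and 651 to 2360 for both stimuli against isotype, and 643, 124 to 2839 and 220 to 1600 for both stimuli against anti-Siglec-F. Both stimuli against IL-33 gave 0, 0 to 2116 and 0 to 786, the interaction gave 0, 0 to 4 and 0 to 86, and the antibody gave 0 throughout the fits without 1 library and 0 to 70 otherwise. Csf3r had the fewest counts of the receptor genes in every library except IL-33 library 2, with 44 to 188 per library.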
